A study of Mus musculus with 8 samples.

Results

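The modified cytosines described here lie in short stretches of the mouse embryonic stem cell genome where 5-formylcytosine (5fC) and 5-carboxylcytosine (5caC) were both found, but at different cytosines. They were chosen by 3 conditions: a cytosine listed for one mark with a cytosine listed for the other mark within 1000 bp, on either strand, not itself listed for both marks, and covered by at most 100 reads in all. Of 12019 listed rows, 2381 met the conditions and are called members: 1256 of 7213 cytosines listed for 5fC (17.4%) and 1125 of 4806 listed for 5caC (23.4%). Another 314 cytosines were listed for both marks and were left out of each list, and 101 further 5fC and 48 further 5caC rows within the distance were left out because they had over 100 reads.

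TET enzymes oxidise 5-methylcytosine (5mC) first to 5-hydroxymethylcytosine (5hmC), then to 5fC and then to 5caC. The glycosylase TDG cuts 5fC and 5caC out of DNA, and base excision repair puts an unmodified cytosine in their place, so that the chain of reactions removes methylation without replication. Cells without TDG keep more of both bases, which is why knockout cells are used to map them. In mammalian cells this chemistry takes place mainly at CpG dinucleotides, where the cytosines of the paired strands face each other and can carry different modifications.

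The 4 libraries used come from embryonic stem cells of strain C57BL/6-ICR with the genotype Tdg -/-, and each group is 1 library. Their DNA was captured with an antiserum against 5fC or against 5caC. One library of each capture had traditional bisulfite alone, which leaves 5mC and 5hmC as C in the reads and turns unmodified cytosine and both marks into T. The second library had chemical protection first, which keeps the captured mark as C too. The level of a mark at a cytosine is the percentage of unconverted (C) reads with protection minus that with bisulfite alone, in percentage points. It refers to captured DNA only and is not the share of all copies of that cytosine that carry the mark. Levels of 5fC and 5caC come from separate captures, so a difference or likeness between them does not compare the amounts of the marks. The bisulfite-only percentage itself is called the baseline here; it counts 5mC and 5hmC in the captured DNA together with cytosine that failed to convert. The remaining 4 of the 8 samples are the corresponding libraries of Tdg fl/fl cells of the same strain and were not analysed here. How many cell lines or cultures stood behind a library was not given in the sources used here.

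These features limit every value. No replicate exists, so intervals cover counting error or the spread over sites, and treat sites as independent although many lie close together. The marks were read in separate captures, so no DNA molecule was seen with both. A cytosine off the other list may still carry the other mark, since reads of unlisted cytosines were not analysed here. The lists hold only cytosines with a rise in unconverted reads and p below 0.05, so the levels are selected values. This p is not adjusted for the number of cytosines examined, so some listings may be false. Positions are those of the mm9 build as the lists give them. No gene or sequence is attached to them, because the reference tables at hand are of another build.

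Coverage was low and similar for both marks. Members had 20 to 100 reads in all, with a median of 21 protected and 15 bisulfite-only reads for 5fC and of 22 and 14 for 5caC. Summed over members, 30008 protected and 22104 bisulfite-only reads stood behind 5fC, and 28584 and 18348 behind 5caC. At p below 0.01 by the deposited Fisher's exact test there were 466 5fC members (37.1%), where 33.8% of the whole 5fC list passes, and 377 5caC members (33.5%), where 36.1% of the whole 5caC list passes. The members were selected on this same contrast, so nothing is read from these shares.

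Most members lay far closer to the other mark than the 1000 bp allowed. The median distance from a 5fC member to the nearest 5caC cytosine was 78.5 bp (95% interval over sites 69 to 86), with a middle range of 28.75 to 217 bp. For 5caC members the median distance to 5fC was 69 bp (63 to 78). Within 10 bp of the other mark were 129 5fC members (10.3%), within 50 bp 499 (39.7%), within 100 bp 711 (56.6%) and within 400 bp, the average fragment length the labels give, 1099 (87.5%). The 5caC shares were 12.4%, 40.9%, 59.6% and 87.7% at the same distances. Most members therefore lay within 1 average fragment of the other mark, and the part of fragment length in this spacing was not tested. Listed cytosines also lay close to others of their own mark. Among 5fC cytosines with at most 100 reads, the nearest other 5fC cytosine was 11 to 50 bp away for 1259 and 401 to 1000 bp away for 220. For 5caC these counts were 728 and 143. For 1079 of the 5fC members the nearest 5caC cytosine was itself a member, for 157 it was a cytosine listed for both marks, and for 27 it had over 100 reads, which includes some listed for both marks.

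**Figure D1:**
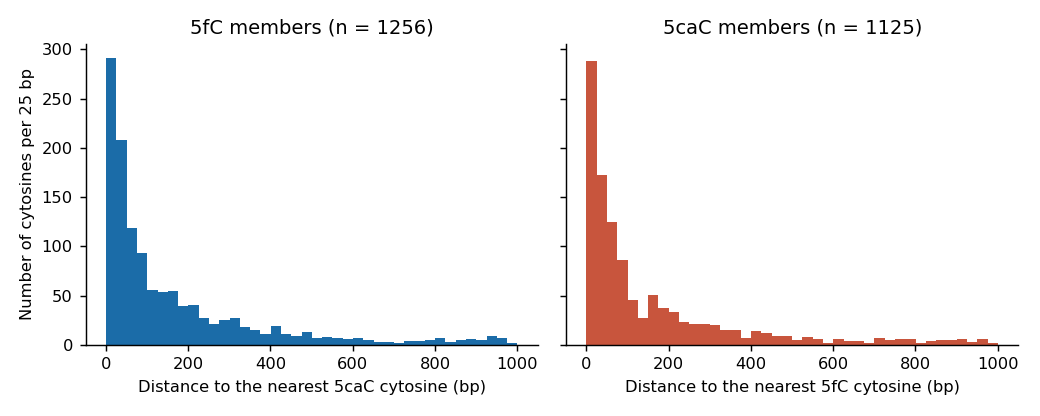
Number of members by distance in bp to the nearest cytosine listed for the other mark, for the 1256 5fC and the 1125 5caC members. Both distributions are highest at short distances, with medians of 78.5 and 69 bp, and thin out towards the limit of 1000 bp.

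The plot of distances falls off smoothly, and few members lay near the limit. At 901 to 1000 bp from 5caC the 23 5fC members had a median baseline of 50% and level of 35.0 points, and at 1001 to 1100 bp the 20 5fC cytosines had 41.7% and 42.4 points. For 5caC the 17 members just inside had 7.69% and 40 points, and the 28 cytosines just outside 6.70% and 34.7 points. At the read limit, 21 5fC members with 91 to 100 reads had a median level of 29.6 points and the 9 5fC rows with 101 to 110 reads had 26.0. The 15 5caC members below the read limit had 25.3 points and the 5 rows above it 28.

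Members also had neighbours of their own mark. Another 5fC cytosine lay within 1000 bp of 862 5fC members (68.6%), and of 2031 of the 5346 5fC cytosines that had no 5caC cytosine within 1000 bp (38.0%). For 5caC these were 679 members (60.4%) and 1145 of 3290 distant cytosines (34.8%). Neighbours of the same mark include cytosines listed for both marks. Those can lie within 1000 bp of a member but, by definition, not of a distant cytosine, so the contrast is partly fixed by the conditions. Distant cytosines, the comparison used from here on, also had at most 100 reads and were listed for 1 mark only. With no library in replicate, this contrast and those that follow are descriptions without a test.

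Neighbouring 5fC and 5caC cytosines were mostly on the same DNA strand. The nearest 5caC cytosine was on the strand of the 5fC member in 836 of 1256 cases (66.6%, exact 95% interval 63.9 to 69.2). At 1 bp the neighbour was on the opposite strand for all 38 5fC and all 46 5caC members. Beyond 1 bp the share was 79.2% (75.2 to 82.8) among 461 5fC members 2 to 50 bp from 5caC, and 54.5% (49.1 to 59.9) among 341 members over 200 bp away. The 5caC members gave 724 of 1125 (64.4%) in all, 78.0% (73.7 to 81.9) at 2 to 50 bp and 56.7% (50.8 to 62.4) over 200 bp. Beyond 1000 bp the share was near an even split, from 49.8% to 52.9% for 5fC and from 50.0% to 53.8% for 5caC.

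**Figure D2:**
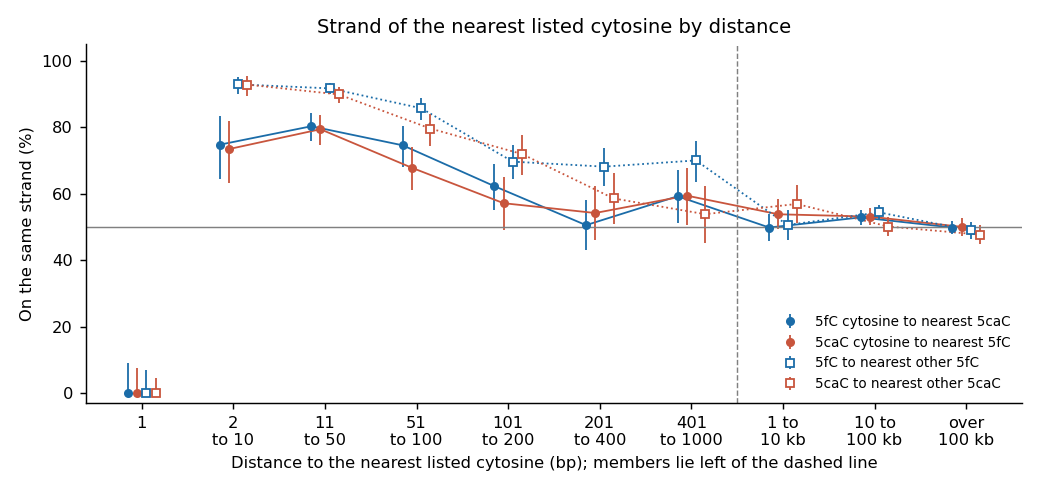
Percentage of nearest listed cytosines on the same strand, by distance class in bp, to the other mark (filled circles) and to the same mark (open squares), with exact 95% intervals. At 11 to 50 bp 80.3% of 5fC members shared the strand of the nearest 5caC cytosine, and 91.7% of 5fC cytosines shared the strand of the nearest other 5fC cytosine.

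From 2 to 400 bp, the same-strand shares were higher between cytosines of the same mark than across marks in every distance class. At 11 to 50 bp the nearest cytosine of the same mark was on the same strand for 1154 of 1259 5fC cytosines (91.7%) and 654 of 728 5caC cytosines (89.8%), against 80.3% and 79.4% of the members across marks. At 201 to 400 bp the same-mark shares were 68.1% and 58.6%, against 50.5% and 54.2% across marks. At 401 to 1000 bp the same-mark share was 70.0% for 5fC, against 59.2% across marks, but 53.8% for 5caC, against 59.4%. A bisulfite read reports 1 strand, so cytosines of that strand within a read are covered together and those of the opposite strand are not. This holds within 1 library. The marks came from separate captures, so no read covered a 5fC and a 5caC row together. The part of coverage in the strand shares, within or across marks, was not tested.

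No preferred order along the strand was detectable. Where both were on the same strand, the nearest 5caC cytosine lay on the 3′ side of the 5fC member in 409 of 836 cases (48.9%, 45.5 to 52.4). The nearest 5fC cytosine lay on the 3′ side of the 5caC member in 370 of 724 (51.1%, 47.4 to 54.8). Both intervals include an even split. The second count holds many of the same pairs seen from the other side, so it is not independent of the first.

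Members and distant cytosines differed less in their level, which the listing threshold restricts, than in their baseline. Similar levels in selected sites do not show similar amounts of a mark. The 5fC members had a median level of 40.6 points (39.8 to 41.7) and the 5caC members of 40.6 points (40 to 41.5), and the distant cytosines of 41.7 and 43.8. Before protection, 5fC members read unconverted in a median of 33.3% of reads (32 to 36.4), against 41.7% (41.0 to 42.9) at distant 5fC cytosines. The 5caC members went the other way, with a median baseline of 15.8% (14.3 to 17.4) against 9.09% (8.33 to 9.09). The gap between the medians of the marks was therefore 17.5 points among members and 32.6 points among distant cytosines.

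After protection the gap was 18.5 points among members and 30.9 among distant cytosines. Median unconverted reads were 80% (78.6 to 81.2) at 5fC members and 88.2% at distant 5fC cytosines, and 61.5% (60 to 63.3) at 5caC members and 57.3% at distant 5caC cytosines. Cytosines listed for both marks, with at most 100 reads, had baselines of 21.7% in the 5fC capture and 11.8% in the 5caC capture.

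The ends of the ranges were also counted. A baseline of at least 50% was found at 362 5fC members (28.8%) and 2232 distant cytosines (41.8%), and one below 20% at 336 (26.8%) and 983 (18.4%). No unconverted read before protection was found at 63 5fC members (5.02%, 3.88 to 6.37) and 219 distant cytosines (4.10%). After protection, 122 5fC members (9.71%, 8.13 to 11.5) had no converted read, against 1361 distant cytosines (25.5%). Among 5caC members, 226 (20.1%, 17.8 to 22.5) had no unconverted read before protection, against 1069 distant cytosines (32.5%). A 5caC baseline below 20% was found at 627 members (55.7%) and 2328 distant cytosines (70.8%), and one of at least 50% at 128 (11.4%) and 315 (9.57%). Sites fully unconverted after protection for 5fC, and sites fully converted before it for 5caC, thus made up smaller shares of the members than of the distant cytosines.

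The differences in baseline were present in each class of read depth. In the classes of 20 to 29, 30 to 49 and 50 to 100 reads, the median 5fC baseline was 27.3%, 35.3% and 42.9% at members and 36.4%, 45.5% and 54.4% at distant cytosines. The 5caC baseline was 20%, 15.4% and 13.7% at members and 9.09%, 8.33% and 10% at distant cytosines. Levels were lower at higher depth in both sets, where the listing threshold admits smaller rises. They were 49.5, 40.4 and 30.7 points at 5fC members and 47.9, 38.9 and 28.7 at distant 5fC cytosines. The 5fC members were thus higher in each class, although their median over all depths was lower (40.6 against 41.7 points). Members had a median of 37 reads and distant 5fC cytosines of 32. The 5caC levels were 47.9, 40.2 and 31.4 points at members and 48.5, 41.0 and 32.3 at distant cytosines.

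**Figure D3:**
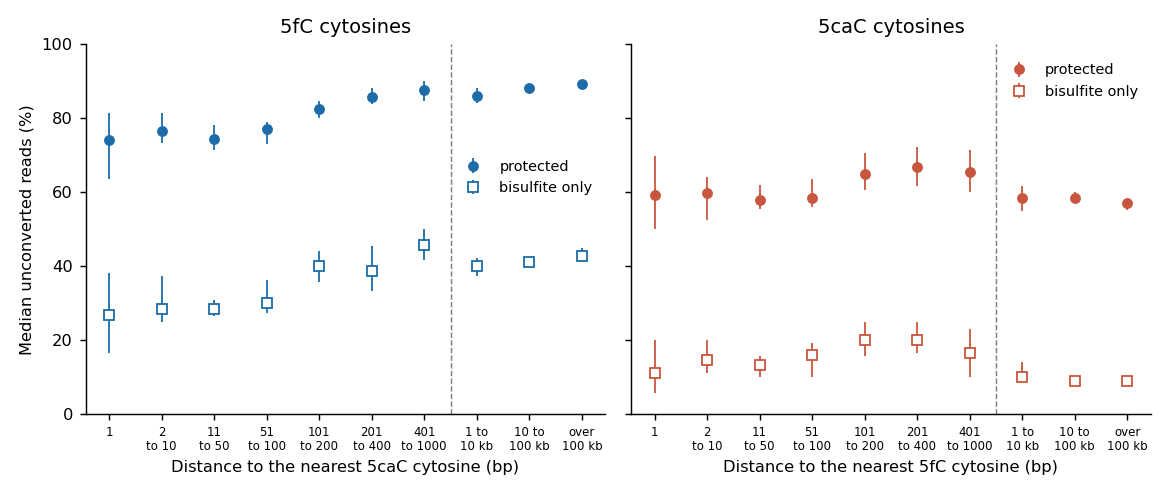
Median percentage of unconverted reads with protection (filled) and with bisulfite alone (open) by distance in bp to the nearest cytosine of the other mark, with 95% intervals over sites; members lie left of the dashed line. The 5fC baseline is 27.0% at 1 bp and 45.8% at 401 to 1000 bp, and the 5caC baseline is lowest beyond 1000 bp.

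The 5fC baseline changed with distance inside the neighbourhoods. It was 27.0% at 1 bp, 28.6% at 2 to 10 and at 11 to 50 bp, 30% at 51 to 100 bp, 40% at 101 to 200 bp, 38.7% at 201 to 400 bp and 45.8% at 401 to 1000 bp. Beyond the limit it was 40% up to 10000 bp, 41.2% up to 100000 bp and 42.9% farther away. The 5fC medians below those of distant cytosines were thus mainly those of the 711 members within 100 bp of 5caC. The median level stayed between 38.5 and 42.2 points over the same classes.

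The 5caC baseline followed another course. It was 11.2% at 1 bp, 14.8%, 13.3% and 16.1% in the next 3 classes, 20% at both 101 to 200 and 201 to 400 bp and 16.7% at 401 to 1000 bp, then 10%, 9.09% and 9.09% beyond. By the medians, the excess over distant cytosines was therefore largest at 101 to 400 bp and smallest at 1 bp. The interval at 1 bp was wide, 5.88% to 20% over 46 members, and overlapped that of every other distance class. The 5caC level ranged from 39.3 to 44.6 points within 1000 bp, with the highest value at 1 bp among 46 members.

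Members that lay within 1000 bp of each other were joined into neighbourhoods, so that each stretch of DNA counts once. This gave 837 neighbourhoods, of which 686 (82.0%) held members of both marks. The others held 1 mark only, 79 of them 5fC and 72 5caC, because the other mark there was a cytosine listed for both marks or one with over 100 reads. The 686 neighbourhoods with both marks held 1134 5fC and 1022 5caC members. Their median span was 183 bp (middle range 69 to 425, highest 1872).

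Most neighbourhoods were small. Of the 686, 304 (44.3%) consisted of 1 cytosine of each mark, and in 210 of these (69.1%, 63.6 to 74.2) both were on the same strand. At least 2 members of each mark were present in 96, at least 3 of each in 27, and 7 neighbourhoods had 10 or more members. The number of 5fC members was higher in 204, that of 5caC members in 141, and they were equal in 341. All members were on 1 strand in 376 (54.8%). In 69 of the 96 neighbourhoods with at least 2 of each (71.9%) the marks alternated more than once along the DNA, and in 27 they formed 1 block each. Most possible orders of so many members alternate more than once, so no trait of these neighbourhoods is read from this share. A cytosine listed for both marks lay within 1000 bp of a member in 58 of the 686 (8.45%). Conversely, 214 of the 314 cytosines listed for both marks (68.2%) had a member within 1000 bp. Near such a cytosine, any cytosine listed for 1 mark with at most 100 reads is a member by the conditions. The share therefore only counts those with such a neighbour.

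The nearest 5fC and 5caC members of each neighbourhood were compared in 686 pairs, 1 per neighbourhood. They were a median of 61.5 bp apart, and 455 (66.3%, 62.7 to 69.9) shared a strand. The baseline was higher at the 5fC cytosine in 476 pairs (69.4%), higher at the 5caC cytosine in 192 and equal in 18, with a median difference of 12.4 points (10 to 14.3). After protection the 5fC cytosine was higher in 485 and the 5caC cytosine in 193, with a median difference of 14.5 points (12.4 to 17.2). The levels differed by a median of 1.07 points (-0.15 to 2.83), an interval that includes 0, and the 5fC level was higher in 366 pairs and the 5caC level in 318. Within distance classes, the level difference was 2.56 points (0.19 to 5.43) in the 222 same-strand pairs at 2 to 50 bp, with 5fC higher in 127, and 2.99 points (0.13 to 7.86) in the 67 opposite-strand pairs at 51 to 200 bp, with 5fC higher in 42. The intervals of the other 5 classes included 0. All these levels were selected by the listing p, and those of 5fC and 5caC came from separate captures. The baselines compared in the pairs came from separate captures too. At cytosines listed for both marks, with at most 100 reads, the median baselines in the 5fC and 5caC captures were 9.93 points apart. After protection the medians there were 8.97 points apart. How much of the paired differences lies between the captures was not tested.

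**Figure D4:**
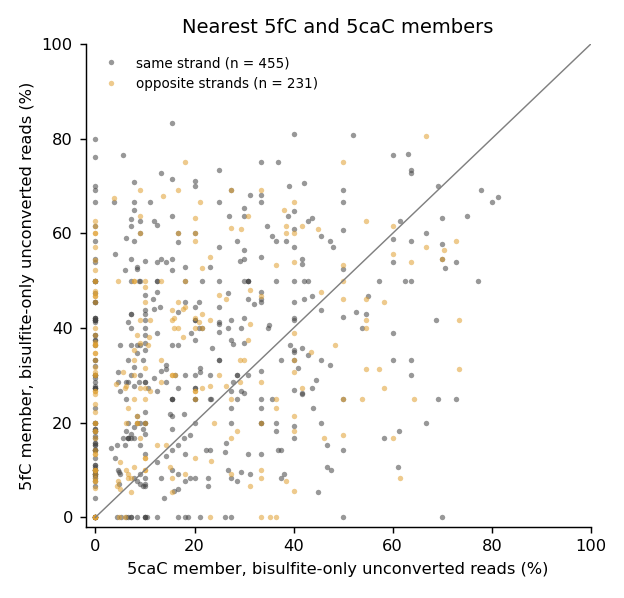
Unconverted reads with bisulfite alone at the 5fC member (percent, 5fC capture) against those at the nearest 5caC member (percent, 5caC capture), 1 point for each of 686 neighbourhoods. More points lie on the 5fC side of the line of equality (476) than on the 5caC side (192), and 142 pairs are below 20% at both cytosines.

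The median baseline difference in same-strand pairs was 10.4 points (8.33 to 13.1) at 2 to 50 bp, 10.7 (9.09 to 14.3) at 51 to 200 bp and 21.7 (13.3 to 27.3) over 200 bp. In opposite-strand pairs it was 14 points (10 to 24), 13.3 (2.5 to 18.6) and 19.9 (5 to 30.1), with intervals that overlap, and 9.09 (2.88 to 20) in the 33 pairs 1 bp apart.

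Baselines were low at both cytosines in 142 pairs (20.7%, both below 20%) and high at both in 40 (5.83%, both at least 50%). The combination of 5fC at a baseline of at least 50% beside 5caC below 20% occurred in 74 pairs (10.8%). The reverse occurred in 9 (1.31%). The marks differed in this direction without pairing too. Of all members, 28.8% of 5fC were at least 50% and 55.7% of 5caC below 20%. The reverse shares were 26.8% of 5fC below 20% and 11.4% of 5caC at least 50%. At distant cytosines these shares were 41.8%, 70.8%, 18.4% and 9.57%. The baselines of paired cytosines had a Spearman correlation of 0.28.

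In 32 cases the 5fC and 5caC members were the cytosines on the opposite strands of a single CpG, so that one strand was listed for 5fC and the other for 5caC. They were spread over 16 chromosomes. The 5fC cytosine was on the plus strand in 14 and on the minus strand in 18. Median baselines were 25% at the 5fC and 11.2% at the 5caC cytosine, and the 5fC one was higher in 26 and lower in 6. Median levels were 41.8 points for 5fC and 45.5 for 5caC, with 5fC higher in 15 and 5caC in 17. If both listings are right, such a CpG has 5fC on some captured molecules and 5caC on others or on the same ones, which cannot be told apart here. Each listing rests on an unadjusted p below 0.05. Among these CpGs it was as high as 0.0498 for 5fC and 0.0472 for 5caC (Fisher's exact test), so some listings may be false.

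The clearest of these CpGs was on chromosome 1. Its plus-strand cytosine at 91946666 read unconverted in 7 of 10 protected and 0 of 12 bisulfite-only reads of the 5caC capture, a level of 70 points (p = 0.000704, Fisher's exact test). The minus-strand cytosine at 91946667 read unconverted in 11 of 13 protected and 1 of 13 bisulfite-only reads of the 5fC capture, a level of 76.9 points (p = 0.000213, Fisher's exact test). Another minus-strand cytosine, at 91946681, was unconverted in 11 of 11 protected and 1 of 10 bisulfite-only reads for 5fC, a level of 90 points. The baseline was low for both marks here, so nearly all unconverted reads appeared with protection.

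A CpG on chromosome 8 had the same arrangement at higher 5caC coverage. Its minus-strand cytosine at 87635856 was unconverted in 11 of 14 protected reads for 5fC and in 2 of 13 without protection (63.2 points). Its plus-strand cytosine at 87635855 gave 26 of 43 and 2 of 16 for 5caC (48.0 points). On chromosome 12 the strands were exchanged: 5fC was on the plus strand at 33739006, with 25 of 34 and 8 of 21 unconverted reads (35.4 points), and 5caC on the minus strand at 33739007, with 22 of 26 and 3 of 17 (67.0 points). Of the 10 CpGs with the lowest p at the weaker of their cytosines, 9 had 5fC on the minus strand, whereas 18 of all 32 did.

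The 10 pairs with the highest smaller level lay on 7 chromosomes, with 5fC levels from 61.8 to 90 points and 5caC levels from 61.5 to 70. The chromosome 1 cytosines gave the first 2 of them. On chromosome 5, minus-strand cytosines 53 bp apart had equal levels of 66.7 points: 5fC at 123566232 read unconverted in 12 of 18 protected and 0 of 11 bisulfite-only reads, and 5caC at 123566285 in 14 of 21 and 0 of 11. On chromosome 3, also on the minus strand, 5fC at 65634970 gave 12 of 15 and 1 of 10, and 5caC at 65634885, 85 bp away, gave 10 of 14 and 1 of 11. On chromosome 6, 5fC at 145221328 gave 13 of 15 and 2 of 11, and 5caC at 145221314 gave 8 of 13 and 0 of 10. Levels this high were reached at 20 to 32 reads per site, where the listing threshold admits large rises only.

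The nearest same-strand members of different marks were 2 bp apart. On chromosome 5, 5fC at 144797961 read unconverted in 8 of 11 protected and 2 of 10 bisulfite-only reads and 5caC at 144797963 in 6 of 10 and 1 of 15, both on the minus strand, with levels of 52.7 and 53.3 points. On chromosome 2 the plus-strand cytosines at 68186971 for 5fC and 68186969 for 5caC gave 11 of 12 and 7 of 15, and 25 of 28 and 11 of 20. These had high baselines in both captures, 46.7% and 55%. On chromosome 19 the plus-strand cytosines at 45297030 for 5fC and 45297032 for 5caC had almost equal baselines, 62.5% and 61.5%, with levels of 30.4 and 38.5 points.

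The neighbourhoods richest in both marks differed in how the marks were laid out. The 10 with the highest smaller number of members lay on 6 chromosomes, and the marks alternated more than once in all 10. Most possible orders of so many members do this, so nothing is read from it. The median baseline was higher for 5fC than for 5caC in 9 of the 10. Over all 686 neighbourhoods it was higher for 5fC in 490 (71.4%) and lower in 184.

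The richest neighbourhood was on chromosome 11, from 103672827 to 103674002 (1176 bp), with 8 5fC and 5 5caC members. The 5caC members opened it: at 103672827 the cytosine read unconverted in 11 of 14 protected and 4 of 15 bisulfite-only reads, and at 103672906 in 7 of 13 and 0 of 14. The 5fC members gathered at the other end, 7 of them between 103673795 and 103674002. At 103673955, for example, 53 of 54 protected and 28 of 33 bisulfite-only reads were unconverted, a level of 13.3 points on a baseline of 84.8%. Median levels were 21.3 points for 5fC and 41.3 for 5caC, and median baselines 70.1% and 26.7%. The span also held 2 cytosines listed for both marks and 2 rows with over 100 reads, which are not counted among its members.

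On chromosome 4, the neighbourhood from 135182566 to 135183115 (550 bp) held 5 5fC and 7 5caC members. Most 5caC members lay together in its first part, 6 of 7 between 135182631 and 135182720, including a CpG with 5caC on both strands at 135182688 (10 of 20 protected and 2 of 19 bisulfite-only reads) and 135182689 (17 of 33 and 2 of 12). Among them a 5fC member at 135182707 gave 11 of 18 and 1 of 13, a level of 53.4 points. Its other 5fC members had baselines from 18.2% to 84.6%. Low and high baselines thus stood side by side for the same mark.

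On chromosome 15, all 11 members between 97153937 and 97154349 (413 bp) were on the minus strand. The 3 outermost 5fC cytosines had baselines of 43.8%, 52.6% and 56.2%, the 3 in the middle 28.6%, 12.5% and 16.7%. The 5caC cytosines at the far end had 55.6% and 61.1%, and at 97154199 in the middle 9.52%, where 12 of 18 protected and 2 of 21 bisulfite-only reads were unconverted (57.1 points). The baselines of both marks were lower in the middle, up to 40% at the 5caC cytosine at 97154196, than at the ends, and the median was 36.2% for 5fC and 40% for 5caC. It was the only one of the 10 in which 5caC had the higher median baseline.

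A second neighbourhood on chromosome 11, from 59063288 to 59063572, packed 4 5fC and 7 5caC members into 285 bp, 10 of them on the plus strand. The 5fC cytosine at 59063474 had the highest level, with 17 of 18 protected and 3 of 11 bisulfite-only reads unconverted (67.2 points), and the 5caC cytosine at 59063320 gave 33 of 41 and 3 of 13 (57.4 points). Median levels were 42.5 points for 5fC and 47.9 for 5caC, and median baselines 37.0% and 33.3%.

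**Figure D5:**
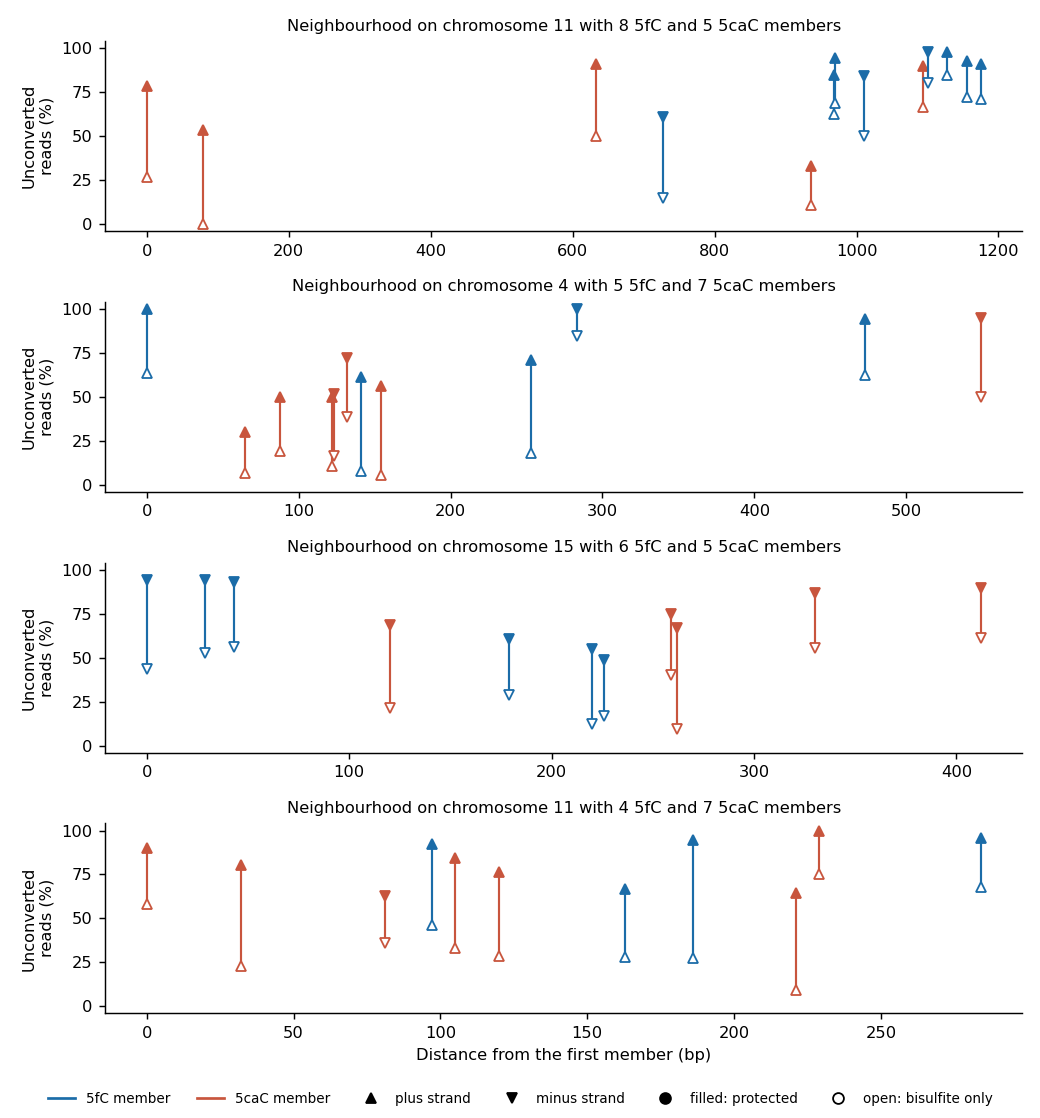
Members of the 4 neighbourhoods richest in both marks, at their distance in bp from the first member, with the percentage of unconverted reads in bisulfite-only (open) and protected (filled) libraries joined by a line whose length is the level. Marks alternate along each stretch, and on chromosome 15 all 11 members point down because they lie on the minus strand.

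The maps show each member's baseline and level together. Among the other 6 neighbourhoods of the set, the one on chromosome 6 from 6828282 to 6830118 had low baselines for both marks, 16.5% for 5fC and 4.17% for 5caC, and median levels of 53.0 and 36.5 points. The marks changed 7 times along its 1837 bp. One on chromosome 19, from 42443444 to 42443858, had 4 members of each mark, all 8 on the plus strand, with median baselines of 21.5% and 5%. One on chromosome 5, from 135583498 to 135584177, had 6 5fC and 4 5caC members with baselines of 51.9% and 42.1%. The longest, on chromosome 4 from 141033425 to 141035296, had 9 5fC and 3 5caC members, and the shortest, on chromosome 11 from 99006276 to 99006456, held 5 and 3 in 181 bp.

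Members were found on every autosome, in unequal shares. Of listed cytosines with at most 100 reads and 1 mark, 1256 of 6602 were members for 5fC and 1125 of 4415 (25.5%) for 5caC. Chromosome 6 had the highest autosomal share for both marks, with 94 of 364 5fC (25.8%) and 90 of 252 5caC cytosines (35.7%), and chromosome 16 the lowest, with 8.37% and 15.6%. These shares also depend on how densely each chromosome was listed, which was not tested.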

How the data were processed

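DNA of Tdg -/- embryonic stem cells was captured with antiserum against 5fC or 5caC and sequenced after bisulfite with or without protection, per the labels' protocols. The authors deposited 1 list per mark with raw read counts, C and T with and without protection, per the file headers. The deposited difference matched the rise of the C fraction recomputed from these counts within 0.0001, and the deposited p-value matched Fisher's exact test (two-sided, unadjusted) within 1%. Listed rows have at least 10 reads per library, a positive difference and p below 0.05. Bismark, HOMER and mm9 are named in the submitters' processing notes. The step each served and any removal of copied reads were not given in the sources used here. Without molecular identifiers, reads may not be independent molecules.

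Columns were matched to the 4 knockout libraries by mark, genotype and title, 1 library per group. Distances were taken on the position column, on either strand, against all rows of the other list. Members within 1000 bp of each other were joined. Medians carry order-statistic and shares exact (Clopper-Pearson) 95% intervals. No difference between sets of sites was tested, because the rule used the same contrast. The members and lists were chosen with earlier results of these data known. The sites named are examples of 4 sets of 10: neighbourhoods with the highest smaller number of members, pairs with the highest smaller level, CpGs with the lowest larger p, and nearest same-strand pairs. Alternatives changed the distance, the read limits, the listing p, the handling of shared cytosines and the counting of members. Gene lists could not be applied, because no mm9 annotation was used. Values were computed with scipy 1.17.1, pandas 2.3.3 and numpy 2.4.6 in Python 3.11.15, and plotted with matplotlib 3.10.9. The code was tested on simulated data.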

Additional observations from a re-analysis of the deposited data

How the results depend on the processing

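Of 60 comparisons of a value with its alternative, 41 stayed within the set bounds, 19 moved and 0 changed sign. Counts and distances cannot change sign, and listed levels are positive by selection. Only the paired baseline difference and the strand share, around an even split, could have reversed. A shorter distance limit lowers the median distance by construction. The median distance from 5fC to 5caC was 65 bp within 500 bp, 44 bp within 200 bp, 62 bp at 20 or more reads per library and 54 bp with 1 member per neighbourhood. The same-strand share of 5fC members was 71.0% within 200 bp and 77.1% with at least 20 reads. The median 5fC level was 39.4 points with no read limit, 31.2 with at least 20 reads, 49.3 at p below 0.01 and 41.7 with 1 member per neighbourhood. The median 5caC level was 31.1 with at least 20 reads and 47.6 at p below 0.01. The paired baseline difference was 17.7 points with at least 20 reads and between 10 and 12.9 otherwise. With at least 20 reads, 131 5fC members, 117 5caC members and 60 neighbourhoods with both marks remained, and at p below 0.01 222, 204 and 153. Both restrictions keep fewer rows, and a higher minimum admits smaller rises. Leaving out a replicate was not possible with 1 library per group. No paired analysis was possible because the groups carry no replicate numbers. Median bisulfite-only depth was 15 and 14 reads, so the level of a single member is known only roughly.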

Other observations

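On the X chromosome 11 of 54 5fC and 10 of 17 5caC cytosines eligible by reads and by listing for 1 mark were members. Of these, 10 and 9 lay in the last listed megabase, from 165442486 to 166442485, so most X-linked members shared one small region. The share of all eligible X cytosines in that region is not given here, so the lists as a whole may be concentrated there too. The X-linked members formed 8 neighbourhoods, 5 of them with both marks. A further 5 5fC members and 1 5caC member lay on an unplaced sequence of chromosome 9, and leaving it out gave 1251 and 1124 members and 685 neighbourhoods with both marks, an alternative chosen after seeing the data.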
